A study of Mus musculus with 6 samples.

Results

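The genes described here encode the respiratory chain of the inner mitochondrial membrane, complexes I to IV, and ATP synthase, called complex V. They were chosen by gene name alone: 108 of the 38924 gene models in the tables begin with one of the chain's prefixes, after 1 pseudogene name was left out. Of these, 13 are mitochondrially encoded genes, counted as mRNA, and 95 are nuclear genes. The nuclear names comprise 83 subunits (36 of complex I, 4 of II, 8 of III, 19 of IV and 16 of V) and 12 genes that share a prefix but act as assembly or accessory factors (7 Ndufaf genes, Sdhaf1, Sdhaf2, Cox7a2l, Atp5s and Atp5sl). Ndufa4 and its paralog Ndufa4l2 were placed with complex IV, where the Ndufa4 protein is now assigned. The RNA came from CD4+CD25+ T cells, a fraction rich in regulatory T cells, of spleen and mesenteric lymph nodes. The mice were untreated WT males and females aged 10 to 16 weeks. Cells were enriched on magnetic columns and sorted by flow cytometry into cells with surface ILT3 (ILT3+, 3 samples) and without it (ILT3-, 3 samples), and the comparison asks how these cells differ. ILT3 is an inhibitory receptor of the immunoglobulin superfamily, known mainly from antigen-presenting cells. No label ties a sample to its own mice, so the p-values reflect the scatter of these 6 samples, which may be technical.

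Electrons from NADH enter the chain at complex I and those from succinate at complex II, which is also an enzyme of the tricarboxylic acid cycle. Ubiquinone carries them to complex III and cytochrome c carries them on to complex IV, which reduces oxygen. Complexes I, III and IV pump protons, and ATP synthase uses the proton gradient to make ATP. Mitochondrial DNA encodes core subunits of complexes I, III, IV and V, whereas complex II is wholly nuclear. Its mRNAs are cut from long transcripts that cover most of the circular genome. The nuclear genes are transcribed one by one, and the factors NRF-1, GABP, YY1 and ERR alpha are known to act on many of their promoters. Regulatory T cells are known for a stronger reliance on oxidative phosphorylation than conventional effector T cells.

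Each library held 6695391 to 10242344 total exon reads. Lilrb4, the mouse gene of ILT3, lay at 0.498 to 2.01 CPM (read counts scaled to library size, with TMM factors) in the ILT3- libraries and at 150 to 248 CPM in the ILT3+ libraries. The T cell genes Cd3e (697 to 1149 CPM), Cd4 (520 to 1141 CPM) and Foxp3 (839 to 1463 CPM) were present in all 6. Several markers of other cells were higher in ILT3+. The 12 myeloid and dendritic cell markers summed to 15.7 to 30.2 CPM in ILT3- and 230 to 889 CPM in ILT3+, with 3 of 8 tested called higher (5 with the sample number as a block) and Clec9a at 0 reads. In ILT3+ libraries 1, 2 and 3 this sum was 889, 241 and 230 CPM. There Fcer1g alone stood at 180, 185 and 172 CPM. The other called genes were also up in all 3 ILT3+ libraries. Batf3 stood at 11.8, 10.8 and 12.3 CPM there, against at most 0.332 CPM in ILT3-. Tyrobp stood at 63.5, 18.2 and 12.3 CPM, against at most 2.49 CPM in ILT3-. Csf1r (353, 2.99 and 0.538 CPM) and Emr1 (188, 2.77 and 7.32 CPM) were high in ILT3+ library 1 only. The 6 erythroid markers summed to 0.753 to 6.97 CPM in ILT3- and 55.4 to 271 CPM in ILT3+, with 2 of 4 tested called higher (4 with the block). Their sum was 271, 55.4 and 62.7 CPM in ILT3+ libraries 1, 2 and 3. The 6 markers of NK, innate lymphoid and CD8+ cells summed to 39.2 to 57.5 CPM and 188 to 249 CPM, with 1 of 3 tested, Kit, called higher. Without Kit these markers summed to 45.5, 16.6 and 21.7 CPM in ILT3- and 62.7, 18.0 and 24.6 CPM in ILT3+, which overlapped. B cell markers (19.5 to 39.4 CPM and 35.1 to 80.6 CPM) had 0 of 4 tested called in edgeR and 1 at an unadjusted p under 0.05. T cell markers (6555 to 9464 CPM and 6454 to 8346 CPM) had 0 of 12 called and 1 at that p, Trbc1, a chain of the T cell receptor, which was called lower with the block (edgeR adjusted p = 0.0103). Neutrophil markers, at 0.533 CPM or less in sum, had too few reads to test. Cell cycle genes, from 489 to 683 CPM in sum in ILT3- and 1031 to 1399 CPM in ILT3+, had 8 of 16 called higher (13 with the block). The part of these differences in the values of the respiratory chain genes was not tested. In such bulk samples fewer cells of a type and less RNA per cell cannot be told apart.

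The mitochondrial mRNAs were by far the most abundant members. They took 4.98%, 4.15% and 3.50% of exon reads in ILT3- libraries 1, 2 and 3, and 4.50%, 3.68% and 3.48% in ILT3+ libraries 1, 2 and 3. All nuclear members together took 1.11%, 1.11% and 1.20% in ILT3- and 1.19%, 1.18% and 1.18% in ILT3+. The mitochondrial share was highest in library 1 of both groups, and the groups overlapped for both genomes. Summed per kb of exon, the mitochondrial subunits stood at 7.80, 6.34 and 4.84 times the nuclear subunits in ILT3- and at 6.23, 5.12 and 4.74 times in ILT3+. The mitochondrial rRNAs, 2.96%, 1.66% and 1.13% of gene reads in ILT3- and 2.27%, 1.27% and 1.26% in ILT3+, were also highest in library 1 of each group.

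Levels between genes were compared per kb of exon, as means over the 6 libraries. Nuclear subunits tested had a median of 54.1 CPM per kb in complex I, 67.4 in II, 110 in III and 75.9 in V. The 12 tested subunits of complex IV had a median of 165. In complex I the accessory subunits Ndufa6 (200 CPM per kb), Ndufa2 (186) and Ndufa1 (181) were highest by mean but not separated from one another, since Ndufa6 led in ILT3- (219) and Ndufa1 in ILT3+ (190). The lowest was Ndufb2 (4.39). Sdha, the flavoprotein that oxidises succinate, led complex II at 122, above Sdhb (85.5), Sdhd (49.4) and Sdhc (21.4) in every library. Uqcrc1, a core protein of complex III, led that complex at 248, but it was not above Uqcrh (200), the hinge protein at which cytochrome c docks, in every library. Cox6b1 (339) and Cox8a (309) led complex IV without separating from each other. The catalytic beta subunit of ATP synthase, Atp5b (314), and the alpha subunit, Atp5a1 (278), led complex V. Atp5b was above Atp5a1 and Atp5a1 above Atp5c1 (199) in every library. Assembly factors were lower, with a median of 15.7 CPM per kb. The exception was Cox7a2l, with a mean of 360 that differed between groups, at 462 in ILT3- and 258 in ILT3+. The mean of Cox6b1, the highest of the nuclear subunits, was 340 in ILT3- and 338 in ILT3+.

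**Figure D1:**
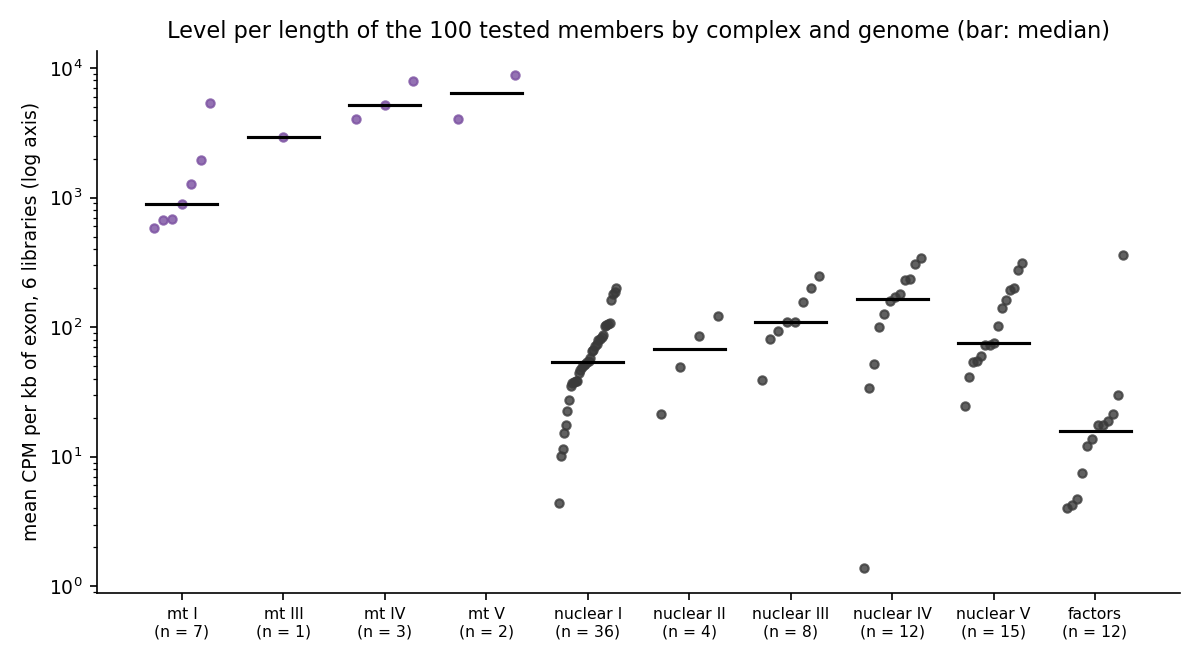
Mean level of the 100 tested members in CPM per kb of exon over 6 libraries, on a log axis, with each point a gene and each bar the median of its group. The 13 mitochondrial genes lie between 578 and 8760 CPM per kb, above every nuclear member, and Cox7a2l is the single high point among the 12 factors.

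Several subunits exist as alternative forms from separate genes, and in most families 1 form took nearly all reads. Cox4i1 had 12711 exon reads over the 6 libraries and Cox4i2, a form known from lung and low oxygen, had 3. Cox6a1 had 8519 and the heart and muscle form Cox6a2 had 0. Cox6b1 had 8970 and the testis form Cox6b2 had 88. Cox7a2 had 5015 and the muscle form Cox7a1 had 10. Cox8a had 8655, Cox8b 2 and Cox8c 0. Cox7b (6275) and Ndufa4 (6134) each had a paralog at 0 reads, Cox7b2 and Ndufa4l2. These lymphoid libraries thus held the widely expressed form in each of the 7 families. ATP synthase subunit c was different, since reads were counted for all 3 of its genes: Atp5g3 with 6845 reads, Atp5g1 with 6422 and Atp5g2 with 2382. They encode the same mature protein, and many of the reads counted for Atp5g1 and Atp5g2 were not unique. Of the Atp5g3 reads 100% were counted as unique in the tables, but only 13.9% of the Atp5g1 reads and 0% of the Atp5g2 reads were, so the split between the latter pair and other copies is uncertain. Of the 108 members 8 were not tested. Cox4i2, Cox6a2, Cox7a1, Cox7b2, Cox8b, Cox8c and Ndufa4l2 had too few exon reads. The deposited model of Atp5l2 has 0 exons, so its exon reads could not be counted. For a gene with exons, a count of 0 in a library allows up to 3 reads, or 0.287 to 0.498 CPM depending on the library, counting error only.

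Of the 75 nuclear members with a promoter entry in RefSeq (GRCm38.p6), 80 windows from 250 bases before to 50 after the start were searched on both strands for short motifs of factors known to act on respiratory genes. The NRF-1 motif CGCATGCG was in 13.75% of the member windows and in 1.87% of all 32851 windows. The GABP (ETS) motif CCGGAAG was in 23.75% against 8.86%, the YY1 motif AAGATGG in 12.5% against 6.34%, and the ERR motif TGACCTT in 10% against 4.72%. The GABP and YY1 motifs can overlap by the letters AAG. In all, 47.5% of member windows held at least 1, against 20.1% of all windows. These matches are a description of letters, not of binding. The 250 bases before the start are shown for the member called with the sample number as a block, Cox7a2l (chr17:83514334-83514583, minus strand), and for a pair of complex III subunits whose values are given below, Uqcrh (chr4:116075071-116075320, minus strand) and Uqcr11 (chr10:80406822-80407071, minus strand). Capitals mark the GABP motif or its reverse complement, which lies 10 bases before the start in Uqcrh and 66 bases before it in Uqcr11. Uqcr11 was also among the genes with the NRF-1 motif in the window searched. That motif is not contained whole in the 250 bases shown. None of the 4 motifs was in the Cox7a2l stretch.
Cox7a2l: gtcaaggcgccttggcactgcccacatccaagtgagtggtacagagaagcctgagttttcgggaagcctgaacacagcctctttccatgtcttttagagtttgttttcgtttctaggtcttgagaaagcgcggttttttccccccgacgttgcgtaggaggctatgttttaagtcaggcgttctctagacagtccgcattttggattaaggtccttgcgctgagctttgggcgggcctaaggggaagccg
Uqcrh: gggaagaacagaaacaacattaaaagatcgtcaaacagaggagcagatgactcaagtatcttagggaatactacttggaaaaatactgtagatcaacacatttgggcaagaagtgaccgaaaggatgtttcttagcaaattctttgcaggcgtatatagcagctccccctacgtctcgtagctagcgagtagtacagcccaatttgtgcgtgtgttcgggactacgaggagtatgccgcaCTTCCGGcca
Uqcr11: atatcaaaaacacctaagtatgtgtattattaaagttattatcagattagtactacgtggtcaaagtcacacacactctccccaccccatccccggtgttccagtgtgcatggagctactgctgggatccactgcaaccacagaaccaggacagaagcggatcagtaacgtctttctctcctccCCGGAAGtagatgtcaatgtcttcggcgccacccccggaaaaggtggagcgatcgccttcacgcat

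In the fit on group alone no member passed the test between ILT3+ and ILT3-, and with the sample number as a block 1 did, Cox7a2l. The values in this paragraph are from fits on group alone. Of the 100 members tested with edgeR's quasi-likelihood test on total exon reads (adjusted p at most 0.05 over 11536 genes), 0 were called, where 2.05% of all tested genes were (207 higher and 29 lower in ILT3+). At an unadjusted p under 0.05 there were 2, Sdhaf1 and Uqcrb, against 13.3% of all tested genes. DESeq2 also called 0 members, with 3 at that p, and limma voom 0, with 2. Of all 11536 genes DESeq2 called 743 and limma voom 151, and their shares at the unadjusted p were not computed. The median log2 fold change (ILT3+ over ILT3-) was 0.03 over the 87 tested nuclear members, 51 of them positive, and 0.00 over all tested genes. A miss of the threshold does not show equal levels, but the intervals bound the difference. For 86 of the 100 members the 95% interval of the fold change lay within 2-fold in either direction, as it did for 37.1% of all tested genes. The point estimate was within 0.5 on the log2 scale for 96 of the 100, against 64.5% of all tested genes. The genes compared were not matched to the members in read count, on which the width of an interval depends. How far read count accounts for these shares was not tested. The 4 beyond it were Sdhaf1, Cox7a2l, Ndufaf4 and Ndufs5, of which 3 are factors.

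**Figure D2:**
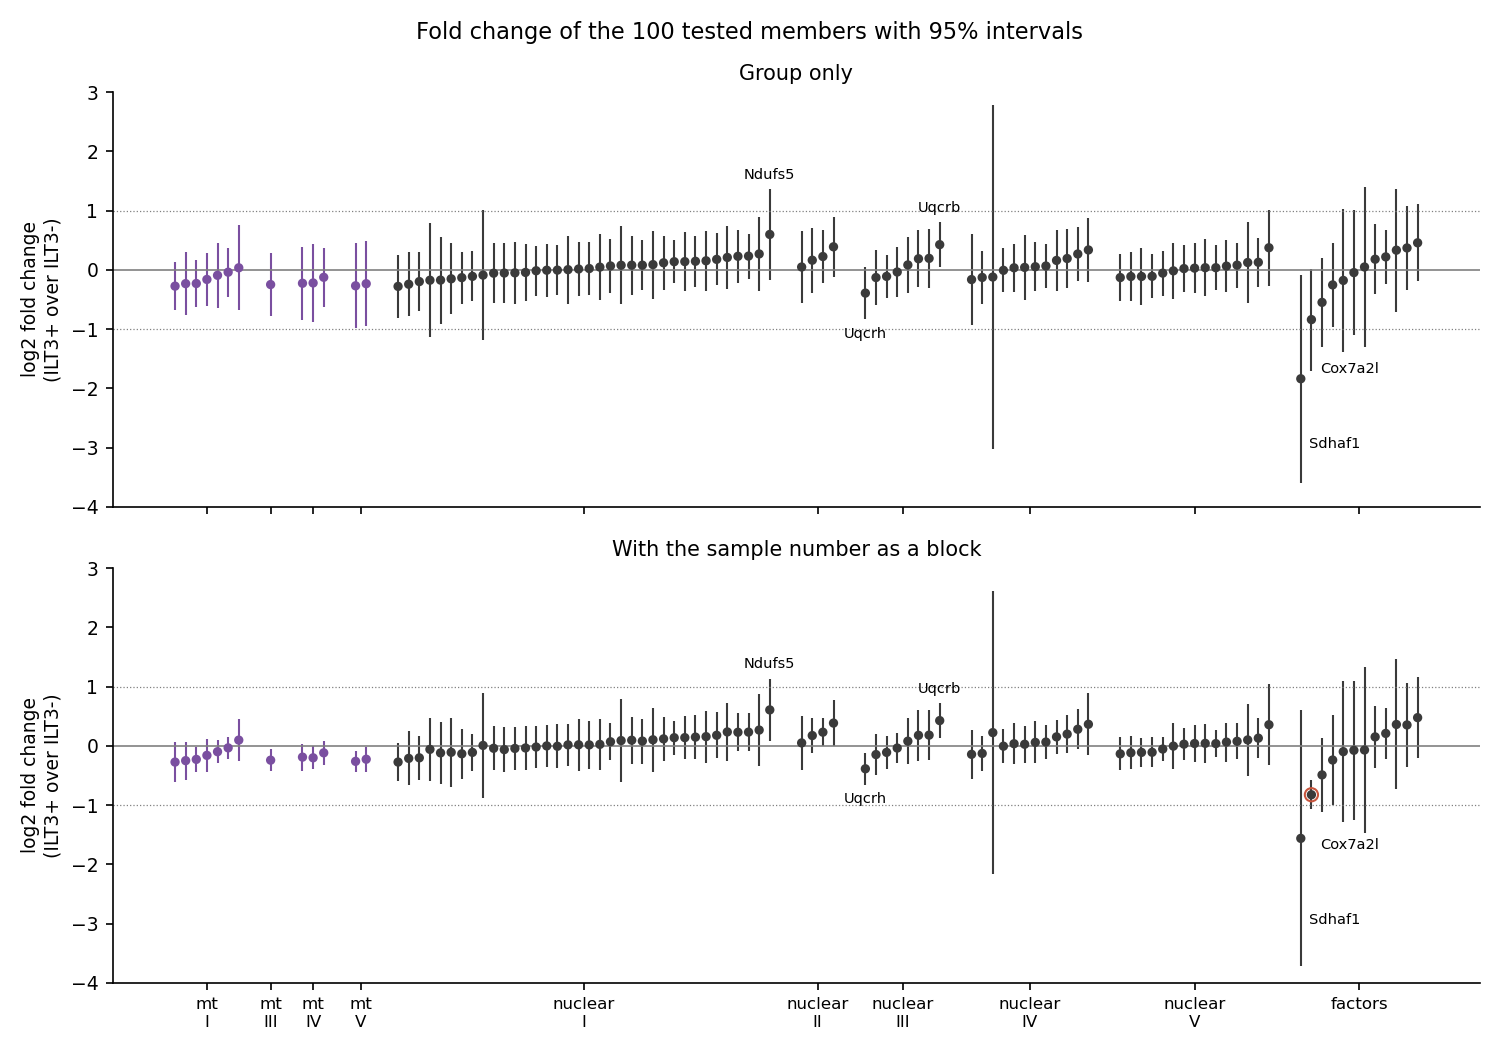
Log2 fold change (ILT3+ over ILT3-) of the 100 tested members with 95% intervals from edgeR, grouped by genome (mitochondrial in purple) and complex, without (top) and with (bottom) the sample number as a block, with dotted lines at 2-fold. Most points lie near 0, and Cox7a2l, ringed, is the 1 member called, with the block only.

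The groups did not overlap for few members. In normalised counts 3 of the 100 lay higher in all ILT3+ than in all ILT3- libraries, which was so for 12.4% of all tested genes, and 3 lay lower, as 7.83% did. The higher ones were Uqcrb, Ndufb9 and Ndufv2, and the lower ones Atp5d, mt-Nd5 and mt-Nd6. The shares of members were thus below those of all genes in both directions.

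Cox7a2l was the 1 member called with the sample number as a block. Its protein helps to join complexes III and IV into supercomplexes. The gene lies at chr17:83501919-83514333 on the minus strand (GRCm38) and has 4 exons in the tables. It stood at 767, 493 and 328 CPM in ILT3- libraries 1, 2 and 3 and at 412, 285 and 190 CPM in ILT3+ libraries 1, 2 and 3. The groups overlapped, because library 1 was the highest and library 3 the lowest in both. Within each number ILT3+ was lower, at 0.537, 0.578 and 0.578 times its ILT3- counterpart. The group means were 530 ± 222 (SD, n = 3) and 295 ± 111 CPM (SD, n = 3). In the fit on group alone the log2 fold change was -0.84 (SE 0.37), with a BH-adjusted p of 0.391 in edgeR. It came to -0.48 without ILT3- library 1. With the sample number as a block, 6.07% of all tested genes were called (415 higher and 285 lower), and Cox7a2l was the 1 member among them, with a log2 fold change of -0.83 (95% interval -1.07 to -0.59) and a BH-adjusted p of 0.00832 in edgeR. The block fit also called it on unique exon reads (edgeR adjusted p = 0.0126), on total gene reads (0.00937), and with pair 1, 2 or 3 left out (0.00544, 0.0449 and 0.0358). Whether the numbers mark shared mice or days is not stated in the labels. The rule by which the numbers were treated as pairs does not tell numbers 2 and 3 apart. All of these block fits keep the same numbering, and a block with numbers 2 and 3 exchanged was not fitted. Of its exon reads 81.7% were unique. Its paralog Cox7a2, a complex IV subunit, stood at 96.6, 86.3 and 100.4 CPM in ILT3- and at 90.04, 98.1 and 101.8 CPM in ILT3+, with a log2 fold change of 0.03 (SE 0.18).

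**Figure D3:**
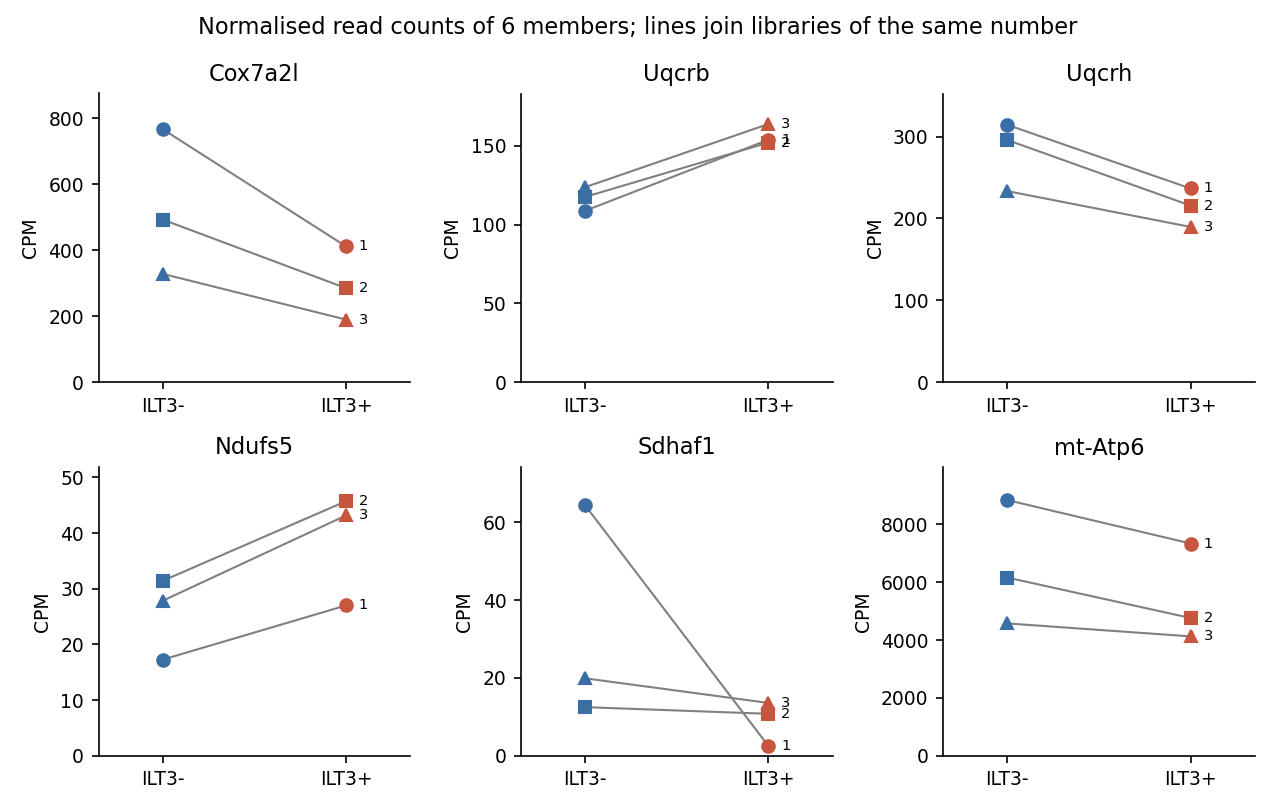
Normalised read counts (CPM) of 6 members in each library, with lines joining ILT3- and ILT3+ libraries of the same number (circle 1, square 2, triangle 3). ILT3+ lies below ILT3- on all 3 lines for Cox7a2l, Uqcrh and mt-Atp6 and above it for Uqcrb and Ndufs5, but of these Cox7a2l alone was called, with the block, and in Sdhaf1 the contrast rests on the libraries numbered 1.

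In complex III the largest differences ran in opposite directions. Uqcrb, a small subunit near the ubiquinone site, stood at 109, 118 and 124 CPM in ILT3- and at 154, 152 and 164 CPM in ILT3+. All ILT3+ libraries were above all ILT3- libraries, with a log2 fold change of 0.42 (SE 0.16) and an edgeR adjusted p of 0.301, or 0.108 with the block. Only 33.1% of its exon reads were unique. Uqcrh stood at 314, 296 and 233 CPM in ILT3- and at 237, 216 and 190 CPM in ILT3+. ILT3+ was lower within each number and the groups overlapped by a narrow margin, with a log2 fold change of -0.39 (SE 0.19) and an edgeR adjusted p of 0.444, or 0.103 with the block. The other 6 nuclear subunits, among them the iron-sulfur protein Uqcrfs1, the core proteins Uqcrc1 and Uqcrc2 and the small subunit Uqcr11, had log2 fold changes from -0.13 to 0.19. Uqcr11 stood at 64.3, 59.5 and 72.9 CPM in ILT3- and at 89.5, 61.5 and 73.8 CPM in ILT3+.

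Complex II was the complex whose summed level did not overlap between groups. Its 4 subunits summed to 267, 242 and 261 CPM per kb in ILT3- and to 311, 307 and 279 in ILT3+, a log2 ratio of means of 0.22. Without the division by length the sums overlapped. All 4 subunits had positive fold changes and 0 were called. Sdhd, a membrane anchor of the complex, stood at 63.4, 53.0 and 48.8 CPM in ILT3- and at 81.9, 74.4 and 59.7 CPM in ILT3+, which overlapped, with a log2 fold change of 0.39 (SE 0.22) and an edgeR adjusted p of 0.525. Sdha stood at 517, 386 and 405 CPM in ILT3- and at 575, 490 and 463 CPM in ILT3+, overlapping as well, with a log2 fold change of 0.22 (SE 0.20). Sdhaf1, which helps to insert the iron-sulfur clusters of complex II, stood at 64.4, 12.5 and 19.9 CPM in ILT3- and at 2.51, 10.8 and 13.6 CPM in ILT3+. Its log2 fold change of -1.84 (SE 0.76, edgeR adjusted p = 0.347) was -0.43 without both libraries numbered 1, so it rests on that pair. Sdhaf1 overlaps another gene model, E130208F15Rik, and 43.0% of its exon reads were unique.

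The 36 nuclear subunits of complex I had log2 fold changes from -0.28 (Ndufa6) to 0.60 (Ndufs5), with a median of 0.02. Ndufs5 stood at 17.3, 31.4 and 27.8 CPM in ILT3- and at 27.0, 45.7 and 43.2 CPM in ILT3+. It was higher in ILT3+ within each number, while the groups overlapped, and its log2 fold change of 0.60 (SE 0.33) had an edgeR adjusted p of 0.516, or 0.188 with the block. Of its reads 30.5% were unique. Ndufb9 stood at 94.98, 95.7 and 101.7 CPM in ILT3- and at 118, 109 and 117 CPM in ILT3+, without overlap, a log2 fold change of 0.23 (SE 0.17). Ndufs1, the largest iron-sulfur subunit, had a log2 fold change of -0.24, and Ndufv1, which binds NADH, had -0.11. Among the 7 assembly factors of complex I, Ndufaf4 had the lowest log2 fold change, -0.55 (SE 0.33, edgeR adjusted p = 0.554), with 24.6, 29.8 and 50.05 CPM in ILT3- and 22.0, 22.4 and 27.0 CPM in ILT3+. ILT3- library 3 was its high value.

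Among the 12 tested nuclear subunits of complex IV the median log2 fold change was 0.05. Ndufa4 stood at 70.7, 115 and 119 CPM in ILT3- and at 140, 117 and 128 CPM in ILT3+, with the low value in ILT3- library 1 and a log2 fold change of 0.33 (SE 0.24, edgeR adjusted p = 0.636). Cox5a, which is contained in the complex early in its assembly, stood at 92.5, 99.3 and 130 CPM in ILT3- and at 129, 119 and 139 CPM in ILT3+, a log2 fold change of 0.27 (SE 0.20) with overlapping groups. Cox4i1, the largest nuclear subunit, had a log2 fold change of -0.13 (SE 0.19), Cox6b1 -0.01 (SE 0.16) and Cox8a 0.16 (SE 0.22).

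The ATP synthase genes Atp5b and Atp5a1 varied little among libraries. Atp5b stood at 1361, 1271 and 1440 CPM in ILT3- and at 1332, 1282 and 1301 CPM in ILT3+, a log2 fold change of -0.06 with a 95% interval from -0.44 to 0.32. Atp5a1 stood at 866, 797 and 919 CPM in ILT3- and at 849, 914 and 882 CPM in ILT3+, a log2 fold change of 0.03 (interval -0.35 to 0.42). Both lay well inside the overlap of the groups. Atp5g2 had the highest log2 fold change of complex V, 0.37 (SE 0.28, edgeR adjusted p = 0.660), with 31.2, 39.1 and 47.6 CPM in ILT3- and 66.7, 42.9 and 43.2 CPM in ILT3+, but none of its reads was unique. Atp5h, a stalk subunit, had -0.13 (SE 0.17).

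Summed over subunits, the nuclear levels differed little between groups. Complex I summed to 2443 ± 169 CPM per kb in ILT3- and 2481 ± 73.9 in ILT3+ (SD, n = 3 each). Complex III summed to 1038 ± 19.1 and 1035 ± 5.37, complex IV to 1873 ± 89.3 and 2003 ± 138, and complex V to 1845 ± 112 and 1843 ± 121. For all 4 the groups overlapped. In unique exon reads alone the complex III sum was lower in every ILT3+ library, with a log2 ratio of -0.06.

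**Figure D4:**
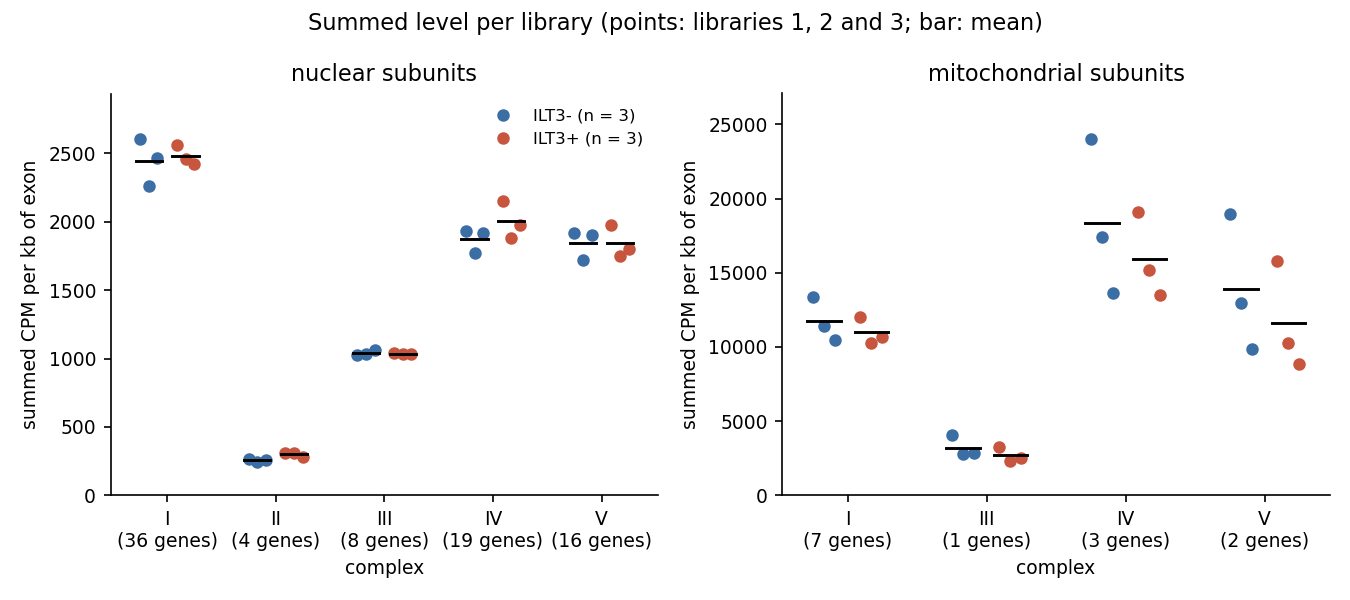
Summed level of the subunits of each complex in CPM per kb of exon, for nuclear (left) and mitochondrial (right) genes, with points for libraries 1, 2 and 3 from left to right and a bar for the mean. Nuclear complex II is the 1 sum whose groups do not overlap, and the mitochondrial sums spread more within each group than the nuclear ones.

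Of the 13 mitochondrial genes 0 were called in edgeR and 0 had an unadjusted p under 0.05. Fold changes were negative for 12, with a median log2 value of -0.23. This median moved with 1 library: without ILT3- library 1 it was 0.01, with 5 of 13 negative, and it ranged from -0.33 to -0.12 when any other library was left out. That library had the fewest exon reads (6695391) and the highest mitochondrial rRNA share. With the sample number as a block the median was -0.20, and 5 of these genes had an unadjusted p under 0.05, all lower, with 0 called. The block fit gave a median of -0.20 without pair 1, -0.13 without pair 2 and -0.29 without pair 3. Without pair 2 none of the 13 had such a p. Among all tested genes 20.6% had such a p with the block.

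By position on the mitochondrial genome, mt-Nd1, a core membrane subunit of complex I, came first, at 5677, 5303 and 4527 CPM in ILT3- and 5071, 5197 and 4803 CPM in ILT3+. It had the smallest spread of the 13 relative to its mean, and a log2 fold change of -0.04 (SE 0.18). The complex I subunit mt-Nd2 had a log2 fold change of -0.16 (SE 0.20), from 839, 792 and 636 CPM to 774, 596 and 654 CPM. The catalytic subunit of complex IV, mt-Co1, took 29.6% of all mitochondrial mRNA reads. It stood at 17822, 11815 and 9665 CPM in ILT3- and 13137, 10740 and 9682 CPM in ILT3+, a log2 fold change of -0.23 (SE 0.27). Library 1 was the highest in both groups, which overlapped. The electron-accepting subunit mt-Co2 stood at 3428, 2950 and 2336 CPM and at 3083, 2542 and 2353 CPM, a log2 fold change of -0.13 (SE 0.21). The third core subunit, mt-Co3, stood at 5842, 4268 and 3099 CPM and at 4797, 3534 and 2988 CPM, a log2 fold change of -0.22 (SE 0.29) and an edgeR adjusted p of 0.228 with the block. ILT3+ was lower within each number for this gene.

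The ATP synthase genes mt-Atp8 and mt-Atp6 share 43 bases (MT, 7927 to 7969), which are 21.1% of mt-Atp8, and how reads in this stretch were assigned is not given in the sources used here. The stretch is shown because the values of this pair of genes are not independent, and it is identical in the GENCODE transcripts of both, with the start codon of mt-Atp6 in capitals.
mt-Atp8 and mt-Atp6: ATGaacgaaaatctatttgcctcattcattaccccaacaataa

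The membrane subunit gene mt-Atp8 stood at 1217, 805 and 636 CPM in ILT3- and 1019, 667 and 571 CPM in ILT3+, a log2 fold change of -0.24 (SE 0.31). The proton channel gene mt-Atp6 stood at 8840, 6159 and 4573 CPM in ILT3- and 7337, 4760 and 4125 CPM in ILT3+, a log2 fold change of -0.27 (SE 0.31). For both genes library 1 was the highest and library 3 the lowest of each group, and ILT3+ was at 0.830, 0.773 and 0.902 times ILT3- within numbers for mt-Atp6 (edgeR adjusted p = 0.807 without and 0.107 with the block). Cytochrome b of complex III, mt-Cytb, stood at 4617, 3168 and 3238 CPM and at 3732, 2660 and 2879 CPM, a log2 fold change of -0.25 (SE 0.23, edgeR adjusted p 0.129 with the block).

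Another 5 complex I genes lie between mt-Co3 and mt-Cytb. The first, mt-Nd3, stood at 295, 252 and 217 CPM in ILT3- and 277, 175 and 197 CPM in ILT3+, a log2 fold change of -0.23 (SE 0.23). The smallest, mt-Nd4l, stood at 375, 163 and 251 CPM and at 316, 215 and 277 CPM. It was the 1 gene with a positive value, 0.03 (SE 0.31), and 0% of its 13511 exon reads were unique. Its neighbour mt-Nd4 stood at 3402, 2434 and 2467 CPM and at 3242, 2085 and 2454 CPM, a log2 fold change of -0.09 (SE 0.24). The groups did not overlap for mt-Nd5, at 2756, 2442 and 2301 CPM in ILT3- and 2196, 1974 and 2215 CPM in ILT3+, a log2 fold change of -0.23 (SE 0.17, edgeR adjusted p = 0.665). They were also apart for mt-Nd6, the only one of the 13 encoded on the opposite strand, at 294, 363 and 328 CPM in ILT3- and 291, 244 and 279 CPM in ILT3+, a log2 fold change of -0.28 (SE 0.18, edgeR adjusted p = 0.593). The models of mt-Nd5 and mt-Nd6 overlap by 14 bases, and the use of strand in counting is not given. The values of this pair may therefore not be independent. Unlike mt-Co1 and mt-Atp6, mt-Nd6 was not highest in ILT3- library 1.

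Per kb the 13 mitochondrial genes spanned 15.2-fold, from mt-Atp6 at 8760 ± 2704 CPM per kb (SD, n = 6 libraries) to mt-Nd6 at 578 ± 79.3. These are levels per gene model and not of separate transcripts. The models of mt-Atp8 and mt-Atp6 overlap by 43 bases, and those of mt-Nd4l and mt-Nd4 by 7. The top pair by mean was mt-Atp6 and mt-Co1 (7860), which were not separated from each other but lay above the next pair in every library. That pair was mt-Nd1 (5325) and mt-Co3 (5214), followed by mt-Co2 (4067) and mt-Atp8 (4015), and in ILT3- library 1 mt-Atp8 (5967) lay just above mt-Nd1 (5932). Then came mt-Cytb (2957), mt-Nd4 (1945) and mt-Nd5 (1269), each above the next in every library. The lowest group, mt-Nd4l (897), mt-Nd2 (689), mt-Nd3 (677) and mt-Nd6, was not resolved. All but mt-Nd6 are encoded on the same strand.

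**Figure D5:**
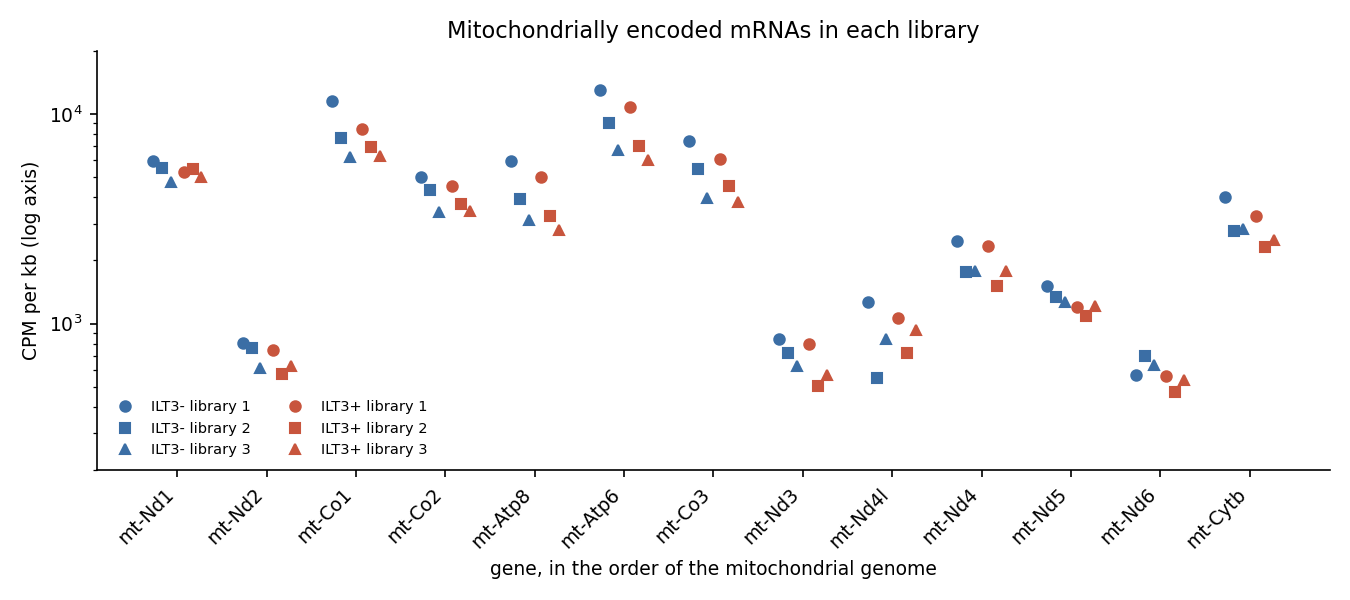
Level of the 13 mitochondrial genes in CPM per kb on a log axis, in genome order, for ILT3- (blue) and ILT3+ (red) libraries 1 (circle), 2 (square) and 3 (triangle). Library 1 is the highest of its group in both groups for all but mt-Nd1, mt-Nd5 and mt-Nd6, and the groups separate for mt-Nd5 and mt-Nd6 only.

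Genes that serve the chain from outside it were compared from 6 lists, 128 tested genes in all. Here too 0 were called in edgeR, with or without the block, and 8 (6.25%) had an unadjusted p under 0.05, against 13.3% of all tested genes. Of the mitochondrial DNA expression genes 0 of 20 were called and the median log2 fold change was -0.08. This list summed to 816, 716 and 803 CPM in ILT3- and 695, 647 and 703 CPM in ILT3+, without overlap. Polg2, the accessory subunit of the mitochondrial DNA polymerase, stood at 21.8, 28.5 and 27.5 CPM in ILT3- and 9.79, 14.6 and 13.7 CPM in ILT3+, without overlap, a log2 fold change of -1.03 (SE 0.32, edgeR adjusted p = 0.190). DESeq2 called it, with an adjusted p of 0.0374. Lrpprc, which stabilises mitochondrial mRNAs, stood at 111, 45.6 and 63.9 CPM in ILT3- and 29.4, 23.3 and 45.5 CPM in ILT3+, a log2 fold change of -1.17 (SE 0.39, edgeR adjusted p = 0.231), without overlap by a narrow margin.

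The regulators of biogenesis had 0 of 11 called in edgeR and a median of -0.18. Their sum was 619, 631 and 624 CPM in ILT3- and 548, 503 and 546 CPM in ILT3+, also without overlap. Nrf1 stood at 91.5, 111 and 95.4 CPM in ILT3- and 77.6, 68.1 and 75.5 CPM in ILT3+, without overlap. Its log2 fold change was -0.43 (SE 0.18, edgeR adjusted p = 0.366), and the coactivator Pprc1 had -0.49 (SE 0.23). Ppargc1a, the coactivator of oxidative tissues, was at 0 reads in all libraries. Assembly factors without the chain's prefixes had 0 of 34 called and a median of 0.12, and the smallest p values were those of Atpaf2, a factor of ATP synthase assembly (log2 fold change 0.62, SE 0.27), and Acad9, a factor of complex I assembly (0.45, SE 0.23). Electron carriers and other donors to ubiquinone had 0 of 22 called and a median of 0.21. In that list Coq2, an enzyme of ubiquinone synthesis, had a log2 fold change of 1.27 (SE 0.47) from 6.97, 4.20 and 5.17 CPM to 18.6, 11.6 and 9.15 CPM. Sqrdl, which passes electrons from sulfide to ubiquinone, had -0.85 (SE 0.31).

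The tricarboxylic acid cycle genes had 0 of 17 called in edgeR and a median of 0.03, with Fh1 (fumarase) at 0.48 (SE 0.19) and Idh3a at 0.44 (SE 0.24). Mitochondrial carriers and import genes had 0 of 24 called and a median of 0.07, with the dicarboxylate carrier Slc25a10 at 1.43 (SE 0.56) and Opa1, which fuses inner membranes, at 0.47 (SE 0.20). Cytochrome c, encoded by Cycs, stood at 147, 165 and 221 CPM in ILT3- and 167, 163 and 197 CPM in ILT3+, a log2 fold change of -0.02 (SE 0.21).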

How the data were processed

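Total RNA of 6 samples, 3 of ILT3+ and 3 of ILT3- CD4+CD25+ T cells, was sequenced after full-length cDNA synthesis from 1 ng RNA and tagmentation, per the labels' protocols. The authors deposited 1 table per sample with total and unique read counts per gene, exon and intron, on GRCm38 per the submitters' processing notes. For the aligner, counting tool, annotation and use of strand the entry is: not given in the sources used here. Other deposited numbers used are the exon length and position of each gene model, per the file headers. The deposited RPKM columns were not used.

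Total exon reads, as deposited, were tested on all genes with edgeR 4.0.16 in R 4.3.3: TMM scaling, genes kept by filterByExpr (count 10, total 15), a quasi-likelihood fit with robust shrinkage and group as the term, and Benjamini-Hochberg (BH) adjustment at 0.05. The biological coefficient of variation, 0.429, dropped to 0.322 under a block. CPM used TMM-scaled library sizes, and levels per kb were divided by the deposited exon length, which merges transcripts, so that long models such as Ndufb2 read low. Alternatives were other count columns, scalings and filters, DESeq2 1.42.0, limma 3.58.1 voom, a block and left-out libraries. The test was checked on simulated data. Each of the 15 library pairs differed beyond sampling noise, so no library was merged. Reads carry no molecular identifiers, so floors and intervals of counts cover counting error only.

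Both groups use the sample numbers 1, 2 and 3. Same-numbered libraries deviated together from their group means (correlations 0.430, 0.298 and 0.317, all over a bound of 0.1), and on that rule the numbers were treated as pairs. ILT3- 2 with ILT3+ 3 (0.130) and ILT3- 3 with ILT3+ 2 (0.192) passed it too, so numbers 2 and 3 are not told apart by it, and the labels do not state a pairing.

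Members were found by name prefix. Members and lists were chosen with earlier results of these data known. Every member could be named, but some are not reported here by name. Values are given for members called with or without the block, the mitochondrial mRNAs, the 2 nuclear members per complex of smallest p and the 2 of highest level, the isoform families and members without enough reads. Of the 6 mitochondrial lists the called genes and up to 2 of smallest p are given. For the cell cycle and marker lists sums and counts are given, and not every called gene is named. Ndufb9, Ndufs1, Ndufv1, Uqcr11, Ppargc1a, Cycs and the T cell markers were named outside this rule. The lists hold genes of mitochondrial DNA expression, biogenesis regulators, further assembly factors, electron carriers, tricarboxylic acid cycle, carriers and import, cell cycle, and markers of T, B, myeloid and dendritic, NK, innate lymphoid and CD8+, erythroid and neutrophil cells. Of 137 symbols in the 6 mitochondrial lists 136 were in the files.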

Additional observations from a re-analysis of the deposited data

How the results depend on the processing

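Over 23 alternatives, 18 of them planned and 5 chosen after seeing the data, the 100 tested members gave 2295 values. Of these 2065 kept their direction and stayed uncalled, 6 became calls (all Cox7a2l, in fits with the block) and 224, of 53 members, changed sign while uncalled. The 236 genes called in all became 743 with DESeq2, 151 with limma voom, 774 without both libraries numbered 1, and 22 to 255 with 1 library left out, the low values coming without ILT3+ library 2 (22), ILT3+ library 3 (23), ILT3- library 3 (31) or ILT3- library 2 (35), and 121 came without ILT3+ library 1. With the replicate block the count was 700, with the block on unique exon reads 562, on total gene reads 932, and with pair 1, 2 or 3 left out 1098, 279 and 288. In each of these 6 fits with the block 1 nuclear member was called, Cox7a2l. The block changed no other call among members. No mitochondrial member was called under any alternative. Genes called in the 6 pathway lists, 0 in the main test, were 1 on unique gene reads, 1 with DESeq2 and 1 with the block on total gene reads, Polg2 each time. The nuclear complex III sum had a log2 ratio of 0.00, which became 0.0242 on total gene reads, -0.0601 on unique exon reads and -0.0506 without length. The cause of these changes was not tested. Of the tested members 14 had under 50% unique exon reads and 67 over 90%, which limits values of genes such as Atp5g2, Atp5l and Cox7c, and 37 members have a gene model that overlaps theirs. Without scaling factors the median of all genes was 0.07, that of nuclear members 0.11 and that of mitochondrial members -0.14.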

Other observations

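Reads from the mitochondrial genome outside the chain's genes came almost wholly from the rRNAs. Over the 6 libraries mt-Rnr2 had 996077 total gene reads and mt-Rnr1 190762, while the tRNA with the most reads, mt-Ts1, had 993 and mt-Td had 0. Per mitochondrial mRNA read there were 0.828, 0.551 and 0.431 mitochondrial rRNA reads in ILT3- libraries 1, 2 and 3 and 0.679, 0.455 and 0.485 in ILT3+ libraries 1, 2 and 3, with library 1 the highest in both groups and the groups overlapping.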
